A study of Mus musculus with 38 samples.

Results

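The comparison described here is that of mice lacking hexokinase 2 in the intestinal epithelium (KO) with their controls (WT) on day 7 of dextran sodium sulfate (DSS) colitis. It covered 14 of the 38 libraries of the series, 7 from KO and 7 from WT animals, and was made across all genes. The sample labels give isolated intestinal epithelial cells, 1 animal number to a library, whereas the text of the series speaks of colon. KO animals carried a floxed Hk2 allele and Cre recombinase driven by the Villin promoter, which is active in the epithelium along the small and large intestine. WT animals were littermates of genotype Hk2fl/fl without the Cre driver being named, so both groups carried the floxed allele. Both groups were male C57BL/6 mice aged 10 to 12 weeks, were housed together, and drank 1.5% (w/v) DSS for 7 days. The comparison asks which transcripts differ with loss of epithelial hexokinase 2 at that time. Libraries are named by their titles, which give the day, genotype and animal number.

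Hexokinases phosphorylate glucose in the first step of glycolysis. Hexokinase 2 is the inducible isoform and can bind the outer mitochondrial membrane, where it joins glucose phosphorylation to mitochondrial ATP and to the control of cell death. DSS damages the colonic epithelium, and the injury brings in leukocytes whose interferons switch on antiviral and antigen-presentation genes in epithelial cells.

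The 14 libraries held 25.2 to 54.1 M counts in WT and 37.6 to 60.6 M in KO. The epithelial gene Epcam was at 1370 to 1667 CPM (counts per 1 M counts of the library, scaled with edgeR's TMM factors) in WT and at 1347 to 1626 CPM in KO, and the pan-leukocyte gene Ptprc was at 13.1 to 88.5 CPM in WT and at 31.7 to 78.9 CPM in KO, so epithelial transcripts dominated and leukocyte transcripts were present in every library. Library d7_WT_386 stood apart in WT, with the lowest total (25.2 M) and 26.6% of its counts from the mitochondrial genome, against 10.9% to 17.4% in the other WT libraries and 11.3% to 16.7% in KO. Library d7_KO_420 had the lowest mean correlation with its own group (0.955, against 0.978 to 0.981 in the other KO libraries) and the lowest sample weight of the 14 in limma's voom (0.187). Results that lean on either library are given with and without it.

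Hk2 (ENSMUSG00000000628; GRCm38 chromosome 6, 82725025 to 82774454, minus strand), which the Cre driver targets, was detected in all 14 libraries and had its lower values in KO. Hk2 ranged from 227 CPM over a median of 300 (299.71) CPM to 595 CPM in the WT libraries, and from 56.0 CPM over a median of 125 CPM to 263 CPM in the KO libraries. The highest WT value was that of d7_WT_356, and the groups overlapped at 1 KO library, d7_KO_420, which exceeded the lowest WT library, d7_WT_431. The log2 fold change was -1.25 (SE 0.30, edgeR adjusted p 0.291), and it lay between -1.48 and -1.04 when each library was left out in turn. Without d7_KO_420 and d7_WT_386 together it was -1.53 (edgeR adjusted p 0.0586). Among the lower-numbered animals (d7_WT_356, d7_WT_361, d7_WT_370 and d7_KO_366 to d7_KO_368; 3 WT, 3 KO) it was -2.30 (edgeR adjusted p 0.334), and among the higher-numbered animals (d7_WT_419, d7_WT_431 and d7_KO_420 to d7_KO_423; 2 WT, 4 KO) it was -0.58 (edgeR adjusted p 0.986). The labels do not say whether animal numbers mark a batch. Libraries d7_WT_386 and d7_WT_393 have numbers between these ranges, where there was no KO animal. In fits with the range of animal numbers in the model they form a separate range. They then do not contribute to the estimated genotype difference. The counts were made over whole genes, so they include any transcript left from the deleted allele and from cells in which Villin is not active.

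Hk1, Hkdc1 and Hk3 had no unadjusted p under 0.05 between the genotypes. Hk1, the constitutive isoform, had a median of 259 CPM in WT and 261 CPM in KO (log2 fold change 0.12, SE 0.12). Hkdc1, the hexokinase domain protein enriched in epithelia, had a median of 56.0 CPM in WT and 57.2 CPM in KO, with a single KO library, d7_KO_420, at 173 CPM; its log2 fold change was 0.17 (SE 0.29) with that library and -0.23 without it. Hk3, the leukocyte isoform, had medians of 1.01 CPM in WT and 4.08 CPM in KO and ranged from 0.466 to 8.98 CPM in WT (log2 fold change 0.52, SE 0.66). Per kilobase of exon, Hk2 at the median had 50.2 CPM in WT and 20.98 CPM in KO, against 30.4 and 30.6 CPM for Hk1 and 10.9 and 11.2 CPM for Hkdc1. By this measure, which divides by all exons of a gene together, Hk2 was above Hk1 in WT and below it in KO. The length of the transcripts present was not determined, so the ranking of the 2 genes is uncertain.

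Ppif, which encodes cyclophilin D, the regulator of the mitochondrial permeability transition pore, was the gene of the permeability-transition list with the smallest p. Ppif ranged from 115 CPM over a median of 146 CPM to 161 CPM in WT, and from 95.0 CPM over a median of 105 CPM to 130 CPM in KO. In 5 of 7 KO libraries it was below every WT library, and the remaining 2 were within the WT range. Its log2 fold change was -0.38 (SE 0.10, edgeR adjusted p 0.291; limma voom with sample weights, adjusted p 0.0358). It was -0.31 with the range of animal numbers in the model. Of the 14 genes of that list, 13 had a log2 fold change below 0 (50.9% of all genes), with a median of -0.13, and Ppif was the only one lower at an unadjusted p under 0.05 (6.9% of all genes). Without d7_KO_420 the median was -0.19, and without d7_KO_420 and d7_WT_386 5 of 14 were lower at an unadjusted p under 0.05 (13.8% of all genes in that fit). The mean log2 CPM of the list was highest in d7_WT_431 (7.82), d7_KO_420 (7.78), d7_WT_386 (7.72) and d7_WT_393 (7.71). In the other libraries it ran from 7.31 to 7.62. In d7_WT_431, d7_WT_386 and d7_WT_393 short genes were also high against long genes, as given below.

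**Figure D1:**
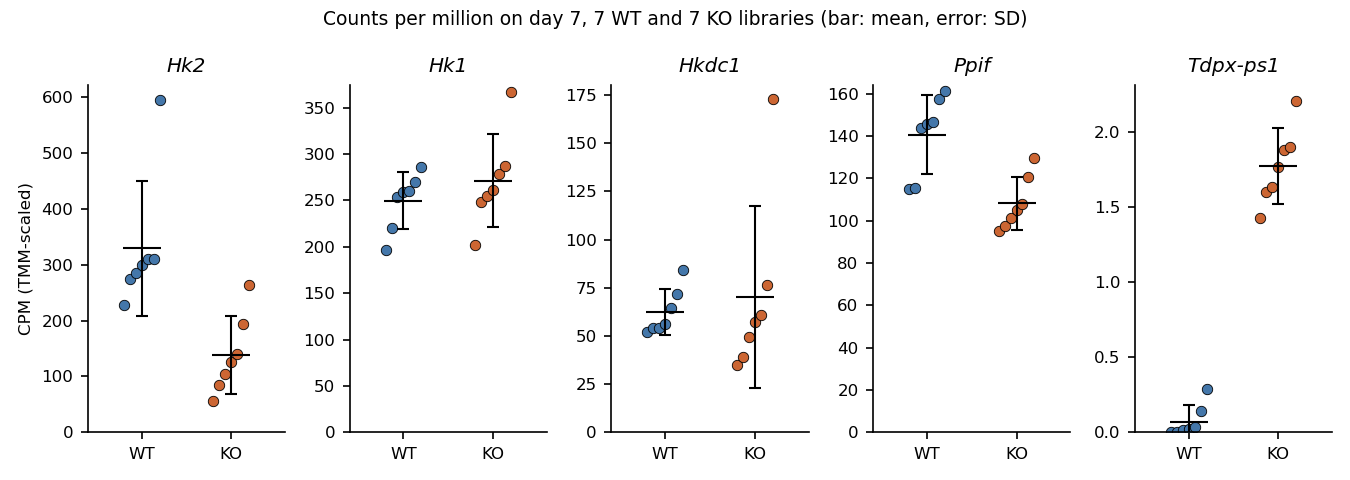
CPM (y axis, TMM-scaled, starting at 0) of 5 genes in the WT and KO libraries of day 7; each point is 1 library, and the bars give the mean and SD of each group. Hk2 and Ppif lay lower in KO with overlapping groups, Hk1 and Hkdc1 had medians at the same level, and the pseudogene Tdpx-ps1 had no overlap.

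Across the transcriptome, 1 of 15584 genes tested (0.00642%) passed an edgeR adjusted p of 0.05. That gene was Tdpx-ps1 (chromosome 1, 99790429 to 99791025), a processed pseudogene of the thioredoxin peroxidase family. It had 0 to 6 counts in the WT libraries and 61 to 126 counts in the KO libraries (0 to 0.287 CPM against 1.43 to 2.20 CPM; log2 fold change 4.96, SE 0.57, edgeR adjusted p 0.0041). It is not on the chromosome of Hk2, and reads of such a copy can come from its parent genes, so its value is uncertain; Prdx2, another gene of the family, had medians of 153 CPM in WT and 145 CPM in KO. The next smallest adjusted p was 0.291, and the number of genes past an unadjusted p of 0.05 was 2017 (12.9%): 941 higher in KO (6.04%) and 1076 lower (6.9%). In 29 genes (0.186%) every KO library lay above every WT library, and in 19 (0.122%) every KO library lay below. The log2 fold change was above 0 in 49.1% of genes and below 0 in 50.9%, with a median of -0.0048. The number of calls depended on the tool: DESeq2's Wald test called 89 genes (0.646% of the genes it gave an adjusted p), and limma voom with sample weights, which gave d7_KO_420 and d7_WT_386 the smallest weights, called 294 higher (1.89%) and 302 lower (1.94%). Of the 89 genes of DESeq2, 71 (79.8%) were among those of limma voom (11.9% of that list), all 71 in the same direction.

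Within 5 Mb of Hk2, 76 neighbouring genes were tested, 6 had an unadjusted p under 0.05, against 12.9% of all genes (Pcgf1, Nagk, Tprkb, Aplf and 1600020E01Rik lower, Wdr54 higher) and the median log2 fold change was -0.0072. Within 5 Mb of Tdpx-ps1, 13 genes were tested and 3 (Fam174a, Gin1 and Pam) were lower at an unadjusted p under 0.05, against 6.9% of all genes.

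The 12 genes with the smallest p in each direction, among genes with a mean of at least 2 log2 CPM, had log2 fold changes from 0.29 to 1.02 when higher and from -1.25 to -0.26 when lower, and none of these passed the edgeR adjustment (adjusted p 0.291 for each). All 24 passed both DESeq2 and limma voom. Among the higher genes was Per2, a repressor of the circadian clock. It ranged from 11.3 CPM over a median of 17.5 CPM to 25.5 CPM in WT and from 27.1 CPM over a median of 29.9 CPM to 45.9 CPM in KO (log2 fold change 0.81, SE 0.17). The groups did not overlap. Of the 16 clock genes tested, Per2 was the only one with an unadjusted p under 0.05, and the list's median was 0.06 (-0.23 without d7_KO_420).

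Spsb1, a SOCS-box adaptor of ubiquitin ligases, ranged from 3.88 CPM over a median of 4.86 CPM to 7.21 CPM in WT and from 6.58 CPM over a median of 8.58 CPM to 16.6 CPM in KO (log2 fold change 1.02, SE 0.21). Only the highest WT library, d7_WT_356, reached into the KO range. Lrp1, an endocytic receptor of the LDL receptor family, had medians of 164 CPM in WT and 302 CPM in KO (log2 fold change 0.78, SE 0.18). Abca7, a lipid transporter, Aph1b, a gamma-secretase subunit, and Inppl1, a phosphoinositide 5-phosphatase, were higher in every KO library than in any WT library, with log2 fold changes of 0.31, 0.56 and 0.29. The remaining higher genes were Fam102a (0.53), Plcxd2 (0.51), L3mbtl3 (0.59), a reader of methylated histones, Zcchc2 (0.47), Slc25a22 (0.42), a mitochondrial glutamate carrier, and Ppp1r9b (0.40), the spinophilin scaffold of protein phosphatase 1; the values are log2 fold changes.

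Trpm6, the magnesium channel and kinase of the apical colonic membrane, had the largest difference after Hk2 among the 12 lower genes. It ranged from 26.7 CPM over a median of 51.7 CPM to 75.1 CPM in WT and from 13.9 CPM over a median of 23.6 CPM to 33.5 CPM in KO (log2 fold change -1.07, SE 0.26). In 6 of 7 KO libraries Trpm6 was below every WT library. Ces2g, a carboxylesterase, had medians of 15.03 CPM in WT and 8.80 CPM in KO (log2 fold change -0.77, SE 0.19). Cbr4, a subunit of the reductase of mitochondrial fatty acid synthesis, had medians of 20.6 and 13.97 CPM (log2 fold change -0.60, SE 0.14). Hmgb2, a chromatin protein of dividing cells, Gtf2a1, a subunit of the general factor TFIIA, and Slx1b, a subunit of a structure-specific nuclease, were lower in every KO library than in any WT library, with log2 fold changes of -0.54, -0.39 and -0.44. Hmgb2 was highest in d7_WT_386, at 163 CPM against at most 107 CPM in the other WT libraries. The remaining lower genes were N6amt1 (-0.49), Yeats4 (-0.39), Ubxn8 (-0.40), Lrrc40 (-0.36) and Anapc5 (-0.26), a subunit of the anaphase-promoting complex; the values are again log2 fold changes.

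**Figure D2:**
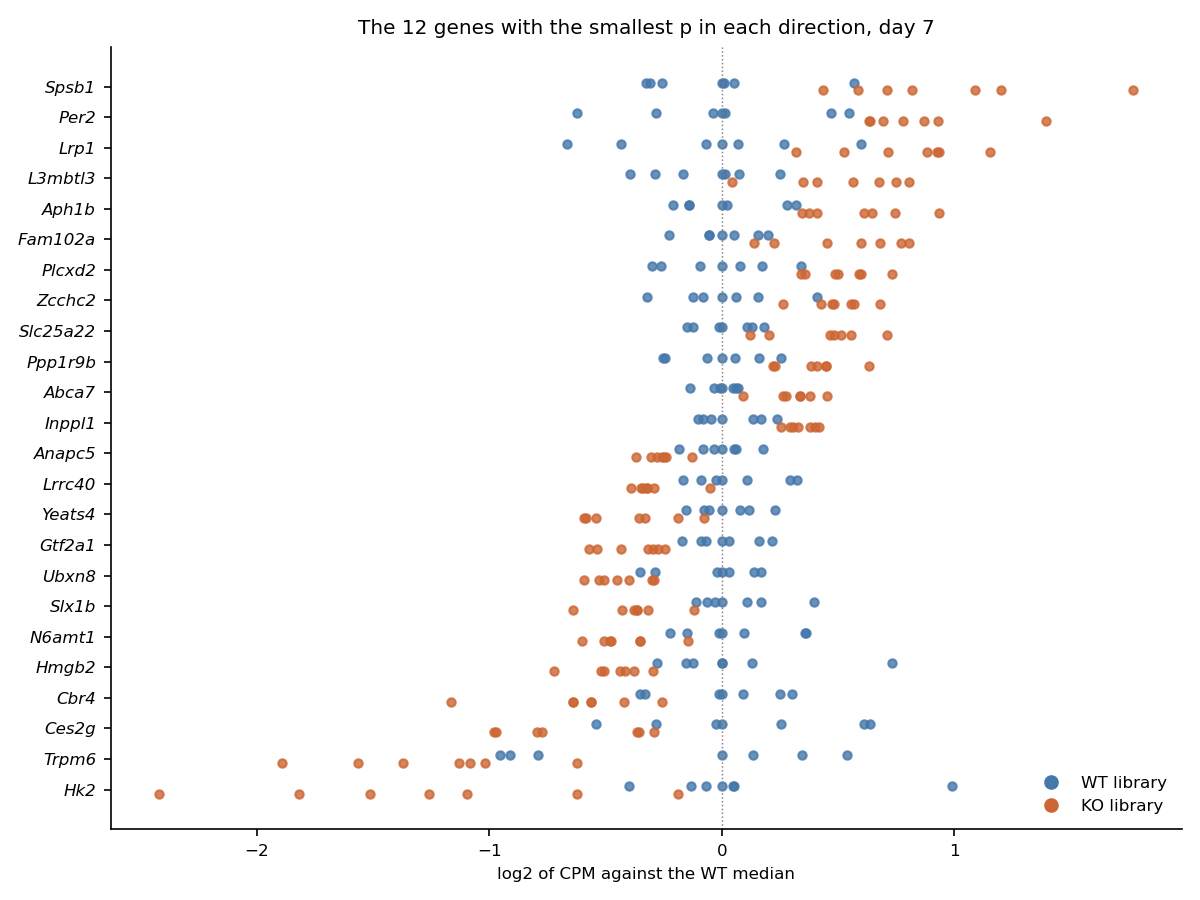
Log2 of each library's CPM against the WT median (x axis) for the 12 genes with the smallest p in each direction (y axis), with WT and KO libraries of day 7 as separate points. Every KO library lay above 0 for the 12 higher genes and below 0 for the 12 lower genes, and Spsb1, Trpm6 and Hk2 spread over more than the others.

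Interferon-stimulated genes were higher in KO as a group. Their list was chosen with earlier results of these data known, so its counts describe the list and are not independent support. Of 36 listed genes, all 36 were tested and all 36 had a log2 fold change above 0 (49.1% of all genes), with a median of 0.82 against -0.0048 over all genes. In 29 of the 36 the unadjusted edgeR p was under 0.05 and the difference was positive (6.04% of all genes), in 0 was it negative, and 0 of 36 passed the edgeR adjustment. Limma voom with sample weights called 10 of the 36 as higher (1.89% of all genes) and DESeq2 called 1, Ifi44. In none of the 36 did all KO libraries lie above all WT libraries.

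The 3 members with the smallest p were Ifi44, Ddx58 and Gbp6. Ifi44, an interferon-induced cytoplasmic protein, ranged from 0.961 CPM over a median of 1.80 CPM to 3.07 CPM in WT and from 2.49 CPM over a median of 4.42 CPM to 8.26 CPM in KO (log2 fold change 1.28, SE 0.31, edgeR adjusted p 0.291). Ddx58, which encodes the RNA sensor RIG-I, ranged from 14.2 CPM over a median of 18.7 CPM to 25.1 CPM in WT and from 21.8 CPM over a median of 28.4 CPM to 30.997 CPM in KO (log2 fold change 0.50, SE 0.14). Gbp6, a guanylate-binding GTPase, had medians of 3.18 CPM in WT and 5.604 CPM in KO (log2 fold change 1.11, SE 0.33), with 6 of 7 KO libraries above every WT library. For each of the 3 genes, the median KO library lay above the highest WT library, and the lowest KO libraries lay within the WT range.

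Transcription factors and effectors of the pathway were also higher at the median. Stat2 ranged from 25.9 CPM over a median of 35.8 CPM to 49.4 CPM in WT and from 35.9 CPM over a median of 58.3 CPM to 71.6 CPM in KO (log2 fold change 0.57, SE 0.17). Irgm1, a GTPase of cell-autonomous immunity, ranged from 46.2 CPM over a median of 85.3 CPM to 118 CPM in WT and from 77.3 CPM over a median of 133 CPM to 228 CPM in KO (log2 fold change 0.83, SE 0.26). Ifit3, an RNA-binding effector, had medians of 1.99 CPM in WT and 3.79 CPM in KO (log2 fold change 0.76, SE 0.24). The chemokine Cxcl10 had medians of 7.47 and 12.9 CPM and the widest spread, from 1.01 to 20.2 CPM in WT (log2 fold change 0.83, SE 0.63). Irf7, a transcription factor that amplifies the response, had medians of 83.1 and 97.9 CPM (log2 fold change 0.21, SE 0.25) and did not pass an unadjusted p of 0.05. Stat2, Irgm1, Ifit3, Irf7 and Cxcl10 were chosen for naming after their values were seen.

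These genes are known to be switched on through the interferon-stimulated response element (ISRE) and the gamma-activated site (GAS), and the promoter sequences of 3 of them are shown to place the ISRE letters beside the values. Promoters were taken from RefSeq (build GRCm38.p6), as the 250 bases before the gene start, read 5′ to 3′ on the gene's strand. The 3 are the members with the smallest p among those whose promoter held the ISRE letters, here GAAA, any 2 bases and GAAA, on either strand, and the capitals mark every match. The ISRE was found in 16 of the 25 listed genes that had a promoter entry (64%), against 295 of 10921 tested genes with one (2.7%). The GAS letters TTCNNNGAA, which are the same on both strands, were found in 5 of 25 (20%), against 683 of 10921 (6.25%). The list was drawn up from known interferon targets, so these shares describe the list.
Stat2, chr10:128270248-128270497, plus strand: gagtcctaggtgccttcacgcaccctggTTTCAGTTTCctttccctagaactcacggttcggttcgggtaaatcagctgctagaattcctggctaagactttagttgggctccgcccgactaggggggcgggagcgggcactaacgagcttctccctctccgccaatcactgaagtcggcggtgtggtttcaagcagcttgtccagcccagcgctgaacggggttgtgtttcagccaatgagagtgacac
Irgm1, chr11:48871421-48871670, minus strand: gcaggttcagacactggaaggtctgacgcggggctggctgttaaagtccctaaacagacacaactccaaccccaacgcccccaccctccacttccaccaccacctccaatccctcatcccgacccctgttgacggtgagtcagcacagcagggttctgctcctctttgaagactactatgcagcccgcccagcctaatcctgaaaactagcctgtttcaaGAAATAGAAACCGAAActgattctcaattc
Ifit3, chr19:34583279-34583528, plus strand: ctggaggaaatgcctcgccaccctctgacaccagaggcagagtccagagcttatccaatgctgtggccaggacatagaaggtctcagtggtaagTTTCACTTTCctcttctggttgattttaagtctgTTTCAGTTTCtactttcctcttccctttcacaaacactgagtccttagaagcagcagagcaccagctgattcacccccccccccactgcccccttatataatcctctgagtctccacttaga
In Irgm1 the match nearest to the gene start began 24 bases before it, in Ifit3 122 bases before it and in Stat2 222 bases before it. The promoter window of Ifi44 and of Ddx58 held no ISRE match in these letters.

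By library, the mean log2 CPM of the 36 interferon-stimulated genes ran from 2.87 over a median of 3.70 to 4.19 in WT and from 3.66 over a median of 4.47 to 5.11 in KO. In KO, 5 libraries exceeded every WT library, while d7_KO_366 and d7_KO_420 lay within the WT range, and 3 WT libraries (d7_WT_361, d7_WT_393 and d7_WT_431) lay below every KO library. The list's median log2 fold change stayed between 0.66 (without d7_KO_421) and 0.97 (without d7_WT_370) when each library was left out. It was 0.91 without d7_KO_420 and d7_WT_386, with 30 of 36 genes higher at an unadjusted p under 0.05 (11.3% of all genes in that fit), and 0.73 with the range of animal numbers in the model, with 17 of 36 (2.86% of all genes). Within the lower-numbered animals it was 0.54, and within the higher-numbered animals it was 0.87.

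Antigen-presentation genes are also induced by interferons. Of 16 genes of MHC class I and the immunoproteasome, 14 had a log2 fold change above 0 (49.1% of all genes), the median was 0.24, and 8 were higher at an unadjusted p under 0.05 (6.04% of all genes). With the range of animal numbers in the model 4 were (2.86% of all genes). B2m, the invariant chain of class I, ranged from 369 CPM over a median of 416 CPM to 635 CPM in WT and from 464 CPM over a median of 645 CPM to 834 CPM in KO (log2 fold change 0.44, SE 0.16). Tap2, a subunit of the peptide transporter, had medians of 33.4 CPM in WT and 46.3 CPM in KO (log2 fold change 0.45, SE 0.14), with 6 of 7 KO libraries above every WT library. Nlrc5, the transactivator of class I genes, had medians of 9.33 and 24.1 CPM (log2 fold change 0.93, SE 0.39), and was named after its values were seen.

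Of 8 MHC class II genes, 7 had a log2 fold change above 0 (49.1% of all genes) and 4 were higher at an unadjusted p under 0.05 (6.04%), with a median of 0.52. Ciita, the master transactivator of class II, ranged from 2.36 CPM over a median of 5.42 CPM to 9.49 CPM in WT and from 5.32 CPM over a median of 14.97 CPM to 23.9 CPM in KO (log2 fold change 1.36, SE 0.37, edgeR adjusted p 0.291; DESeq2 adjusted p 0.0403). In 5 of 7 KO libraries Ciita exceeded every WT library. Cd74, the invariant chain of class II, had medians of 130 CPM in WT and 246 CPM in KO (log2 fold change 0.87, SE 0.33). The class II median was 1.07 within the lower-numbered animals and 0.10 within the higher-numbered animals.

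Leukocyte transcripts differed between libraries more than between genotypes. All 18 listed genes of T cells and intraepithelial lymphocytes were detected and tested. Their summed level ran from 65.3 to 311 CPM in WT and from 108 to 280 CPM in KO, and none of the 18 had an unadjusted p under 0.05 (median log2 fold change 0.16, from 0.01 without d7_KO_422 to 0.45 without d7_WT_419). The WT libraries d7_WT_361 and d7_WT_393, which were low in interferon-stimulated genes, were also the lowest in T cell genes. Library d7_WT_431 was low in interferon-stimulated genes as well. Its mean log2 CPM for T cell genes was 1.82, within the KO range of 1.53 to 2.77. The defining gene Cd3e was at 1.69 to 8.41 CPM in WT and at 2.82 to 6.83 CPM in KO. Ifng, the T and NK cell interferon, ranged from 0.0523 CPM over a median of 0.202 CPM to 0.592 CPM in WT and from 0.241 CPM over a median of 0.707 CPM to 1.33 CPM in KO (log2 fold change 1.504, SE 0.56). The type I interferon gene Ifnb1 was at most 0.0404 CPM and the type III gene Ifnl3 at most 0.0908 CPM in any library, where 3 counts in a library correspond to 0.0452 to 0.144 CPM. The 3 interferon genes were added after the pathway's values were seen.

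Markers of monocytes and macrophages (14 genes, all tested) summed to 103 to 425 CPM (425.5) in WT and to 109 to 652 CPM in KO, with 13 of 14 log2 fold changes above 0 (49.1% of all genes), a median of 0.80, and 3 higher at an unadjusted p under 0.05 (6.04%). Adgre1, which encodes F4/80, ranged from 0.845 CPM over a median of 1.81 CPM to 4.52 CPM in WT and from 1.16 CPM over a median of 5.89 CPM to 16.99 CPM in KO (log2 fold change 1.61, SE 0.56). Lyz2, the myeloid lysozyme, had medians of 28.1 CPM in WT and 85.8 CPM in KO (log2 fold change 1.29, SE 0.49). C1qc, a complement subunit of tissue macrophages, had medians of 4.93 and 6.71 CPM (log2 fold change 0.95, SE 0.44), and its sign turned within the higher-numbered animals (-0.44). The macrophage lead lay in d7_KO_368 and d7_KO_366, and the list's median was 0.45 without d7_KO_368, 1.08 within the lower-numbered animals and -0.33 within the higher-numbered animals. Of the macrophage genes named after their values were seen, Alox15 was at 0 to 1.04 CPM in WT and at 0.314 to 15.5 CPM in KO. In bulk libraries, fewer cells of a type and less RNA per cell cannot be told apart.

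Neutrophil markers had overlapping levels. Their summed level ran from 383 to 1541 CPM in WT and from 348.4 to 2395 CPM in KO, with the highest values in d7_KO_420, d7_WT_419 and d7_WT_356, and 0 of 15 genes had an unadjusted p under 0.05 (median -0.11). That rested on single libraries: the median was -1.09 without d7_KO_420 and 0.47 without d7_WT_419, and without d7_KO_420 and d7_WT_386 8 of the 15 were lower at an unadjusted p under 0.05 (13.8% of all genes in that fit). With the mean level of the leukocyte lists in each library as a covariate, the interferon median was 0.83 with 29 of 36 genes higher at an unadjusted p under 0.05 (7.41% of all genes), the class I median was 0.24 and the class II median was 0.50. That covariate was a single mean over the neutrophil, macrophage, T cell and B cell lists, which do not hold Ifng. Its group mean was 2.13 in WT and 2.205 in KO. It does not separate 1 cell type from another. The part of Ifng-producing or macrophage cells in the interferon difference was not tested.

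**Figure D3:**
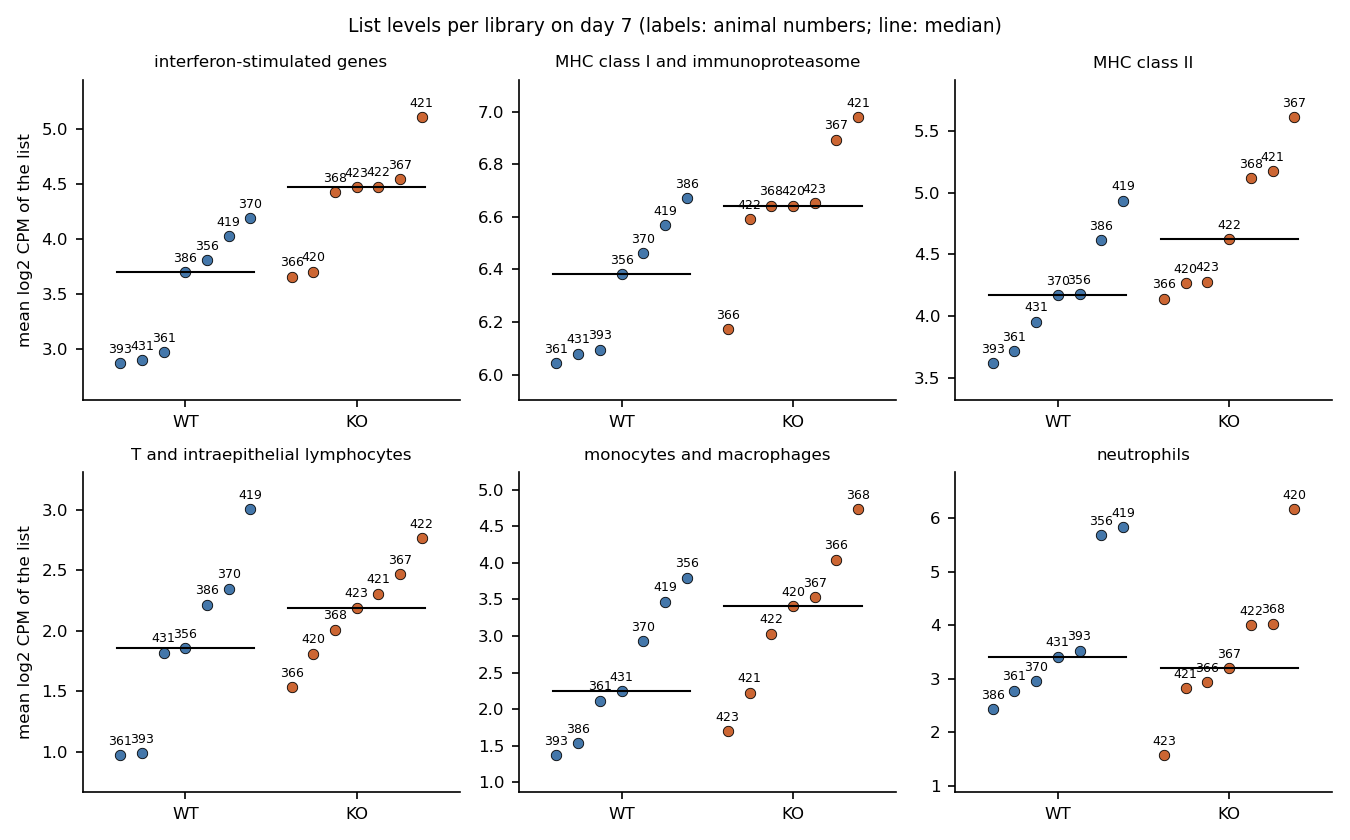
Mean log2 CPM (y axis, its own range in each panel) of 6 gene lists in the 7 WT and 7 KO libraries of day 7; points are libraries labelled with the animal number, lines are group medians. Interferon-stimulated genes had 5 KO libraries above the highest WT library, whereas T cell, macrophage and neutrophil genes overlapped over most of their range.

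Genes of oxidative phosphorylation were slightly lower in KO, and this moved with a measure of library composition. Of 79 nuclear-encoded subunits tested, 78 had a log2 fold change below 0 (50.9% of all genes), with a median of -0.24. Only 8 were lower at an unadjusted p under 0.05 (6.9% of all genes): Ndufb4, Ndufc2, Ndufs4 and Ndufs6 of complex I, Sdhd of complex II, Uqcr10 of complex III, Cox6c of complex IV and Atp5g2 of complex V. The medians were -0.24 for complex I, -0.22 for complex III, -0.27 for complex IV and -0.26 for complex V, and -0.30 for the 11 tested messenger RNAs of the mitochondrial genome, none with an unadjusted p under 0.05. The last median was 0.0036 without d7_WT_386. The mean log2 CPM of the nuclear-encoded subunits ran from 6.95 over a median of 7.17 to 7.91 in WT and from 6.97 over a median of 7.12 to 7.22 in KO. The group medians were thus close, and d7_WT_386, d7_WT_431 and d7_WT_393 lay above every KO library.

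Short genes as a class were lower in KO and long genes higher. The median log2 fold change was -0.13 in the quartile of genes with the least exon length, 54 to 2056 bases, then -0.03, 0.03 and 0.09 in the longer quartiles. The oxidative phosphorylation genes had a median exon length of 1495 bases. The difference between the median of the shortest and the longest quartile in each library, on the log2 scale after centring each gene, was 0.56 in d7_WT_386, 0.40 in d7_WT_431 and 0.22 in d7_WT_393, and from -0.14 to -0.01 in the other 11 libraries. With the length trend removed in each library, a setting added after the data were seen, the oxidative phosphorylation median was -0.11 with 1 gene lower at an unadjusted p under 0.05 (6.5% of all genes); without d7_WT_386 it was -0.12; and within the lower-numbered animals it was 0.06. The interferon median with the length trend removed was 0.82, with 29 of 36 genes higher at an unadjusted p under 0.05 (5.32% of all genes).

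**Figure D4:**
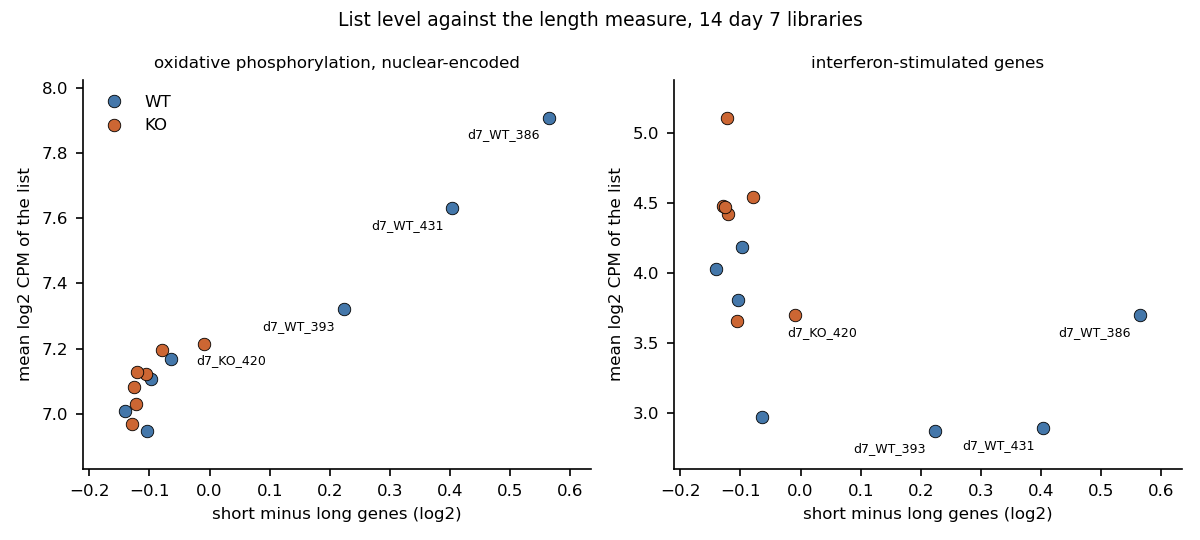
Mean log2 CPM of the nuclear-encoded oxidative phosphorylation genes and of the interferon-stimulated genes (y axes) against the short-minus-long gene measure (x axis, log2) in the 14 libraries of day 7; colours give the genotype. The oxidative phosphorylation level was highest in d7_WT_386, d7_WT_431 and d7_WT_393, the 3 libraries with a measure above 0, and d7_WT_393 and d7_WT_431 were also low in interferon-stimulated genes.

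Of 13 goblet cell genes, 11 had a log2 fold change below 0 (50.9% of all genes), with a median of -0.29, and 4 were lower at an unadjusted p under 0.05 (6.9%). Best2, a bicarbonate channel of colonic goblet cells, ranged from 7.29 CPM over a median of 10.8 CPM to 21.5 CPM in WT and from 2.85 CPM over a median of 7.15 CPM to 7.81 CPM in KO (log2 fold change -0.98, SE 0.25, edgeR adjusted p 0.291; limma voom adjusted p 0.0412). Tff3, the trefoil peptide of mucus, had medians of 334 CPM in WT and 253 CPM in KO (log2 fold change -0.45, SE 0.14). Zg16, a lectin of the inner mucus layer, had medians of 1433 and 1123 CPM (log2 fold change -0.51, SE 0.20). The goblet median was -0.13 with the length trend removed, with 2 genes lower at an unadjusted p under 0.05, and -0.18 without d7_WT_386.

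Of 17 colonocyte genes, 3 were lower (6.9% of all genes) and 1 higher (6.04%) at an unadjusted p under 0.05. The median was -0.14, and it was -0.28 without d7_KO_421, -0.08 without d7_KO_422 and -0.31 with DESeq2. Scnn1b, a subunit of the epithelial sodium channel, had medians of 11.3 CPM in WT and 6.84 CPM in KO (log2 fold change -0.78, SE 0.28), and Scnn1g, another subunit, had 2.93 and 1.28 CPM (log2 fold change -1.19, SE 0.46). Slc26a3, the chloride-bicarbonate exchanger, ranged from 250 CPM (250.4) over a median of 403 CPM to 494 CPM in WT and from 215 CPM over a median of 269 CPM to 360 CPM (360.02) in KO (log2 fold change -0.41, SE 0.16). The groups overlapped for all 3 transporters.

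Antioxidant genes under NRF2, the transcription factor of the oxidative stress response, had a log2 fold change below 0 in 26 of 30 cases (50.9% of all genes), with a median of -0.22 and 7 lower at an unadjusted p under 0.05 (6.9%). Gsta3, a glutathione S-transferase, ranged from 11.1 CPM over a median of 32.3 CPM to 39.1 CPM in WT and from 6.12 CPM over a median of 14.97 CPM to 24.6 CPM in KO (log2 fold change -0.93, SE 0.30). Prdx1, a peroxiredoxin, had medians of 475 and 410 CPM (409.95; log2 fold change -0.37, SE 0.14), and Gpx2, the glutathione peroxidase of the gut epithelium, had 544 and 400 CPM (399.5; log2 fold change -0.43, SE 0.17). The list's highest KO library was d7_KO_420; without it and d7_WT_386 the median was -0.24 and 12 of the 30 were lower at an unadjusted p under 0.05 (13.8% of all genes in that fit). With the length trend removed the median was -0.14 with 3 lower (6.5% of all genes), and with the range of animal numbers in the model 1 was lower (3.55% of all genes).

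Of 19 stem cell and Wnt target genes, 16 had a log2 fold change above 0, with a median of 0.35, and 2, Ephb2 and Rnf43, were higher at an unadjusted p under 0.05 (6.04% of all genes). Ephb2, a receptor that positions crypt cells, ranged from 73.5 CPM over a median of 94.2 CPM to 110 CPM (110.04) in WT and from 99.1 CPM over a median of 116 CPM to 132 CPM in KO (log2 fold change 0.30, SE 0.10). Rnf43, a ubiquitin ligase that limits Wnt signalling, had medians of 25.9 CPM in WT and 33.0 CPM in KO (log2 fold change 0.41, SE 0.15). Lgr5, the stem cell receptor, was named after its values were seen and ranged from 0.233 to 6.08 CPM in WT and from 0.157 to 9.51 CPM in KO. Without d7_KO_420 and d7_WT_386, 12 of 19 were higher and 1 lower at an unadjusted p under 0.05, against 11.3% higher and 13.8% lower of all genes in that fit.

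Of 22 genes of endoplasmic reticulum stress, 17 had a log2 fold change above 0 (49.1% of all genes), with a median of 0.17 (0.11 without d7_KO_368), and 4 were higher at an unadjusted p under 0.05 (6.04%), with 0 lower. Edem1, which sends misfolded glycoproteins to degradation, ranged from 100.4 CPM over a median of 115 CPM to 135 CPM in WT and from 125 CPM over a median of 139 CPM to 165 CPM in KO (log2 fold change 0.27, SE 0.08). Syvn1, the ubiquitin ligase of the same route, had medians of 65.3 and 78.5 CPM (log2 fold change 0.28, SE 0.11). Hyou1, a chaperone of the reticulum, had 144 and 199 CPM (log2 fold change 0.52, SE 0.22). Cytosolic chaperones, picked after their values were seen, differed by more but split within the groups: Hspa1b, the inducible HSP70, was at 4.71 to 9.68 CPM in 5 WT libraries, at 67.8 CPM in d7_WT_370 and at 180 CPM (180.13) in d7_WT_386, while 6 KO libraries lay between 68.8 and 402 CPM and d7_KO_420 was at 8.67 CPM (log2 fold change 2.16, SE 0.91, edgeR adjusted p 0.355). Hsph1, a co-chaperone of HSP70, had medians of 30.5 CPM in WT and 189 CPM in KO and the same low KO library (log2 fold change 1.97, SE 0.71).

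Mitotic genes were lower in part. Of 26 genes of proliferation, 6 were lower at an unadjusted p under 0.05 (6.9% of all genes), with a list median of -0.16. Ccnb2, a mitotic cyclin, ranged from 25.4 CPM over a median of 32.1 CPM to 42.6 CPM in WT and from 11.1 CPM over a median of 24.5 CPM to 27.9 CPM in KO (log2 fold change -0.59, SE 0.18), Ccnb1 had a log2 fold change of -0.52 (SE 0.19) and Cdc20, an activator of the anaphase-promoting complex, of -0.46 (SE 0.18). Without d7_KO_420 and d7_WT_386 the list's median was 0.02, with 6 genes higher (11.3% of all genes in that fit) and 4 lower (13.8%) at an unadjusted p under 0.05. Metallothionein and zinc genes had a log2 fold change above 0 in 9 of 11 cases (49.1% of all genes), with a median of 0.22 and 2 higher at an unadjusted p under 0.05 (6.04%). The median was 0.14 without d7_KO_420, 0.09 without d7_KO_420 and d7_WT_386 (2 higher, 2 lower), and -0.05 within the lower-numbered animals. Mt4 was at 0.0649 to 0.336 CPM in WT and 0.362 to 0.751 CPM in KO (log2 fold change 1.34, SE 0.34). Every KO library lay above every WT library for Mt4, which held for 29 of 15584 genes tested (0.186%). Its lowest WT value lay within 0.0452 to 0.144 CPM, the range where depth limits a gene, so its fold change is uncertain. Mtf1, the zinc-sensing transcription factor, had medians of 30.5 and 38.03 CPM (log2 fold change 0.34, SE 0.10).

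Of 22 genes of glycolysis and lactate, 0 passed an unadjusted p of 0.05 and the median was -0.02; it was -0.13 without d7_KO_420. Of 26 genes of pyruvate entry and the TCA cycle, 1 passed, with a median of -0.10. Of 21 inflammation genes, Saa2, an acute-phase serum amyloid gene, was lower (0.574 CPM in WT and 0.227 CPM in KO at the median) and the median was -0.13; the median was -0.75 without d7_KO_420 and 0.36 without d7_WT_356, and without d7_KO_420 and d7_WT_386 7 genes were lower at an unadjusted p under 0.05 (13.8% of all genes in that fit). Of 37 apoptosis regulators, 1 was higher and 1 lower at an unadjusted p under 0.05. Of 26 genes of necroptosis, pyroptosis and the inflammasome, likewise 1 and 1 were. Over all genes, 6.04% were higher and 6.9% lower at that threshold.

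Of the transcripts of IgA plasma cells, which make the antibody of the gut surface, Igha, Igkc and Jchain had lower values in KO. Igha, the IgA heavy chain, ranged from 6.19 CPM over a median of 14.96 CPM to 44.5 CPM in WT and from 3.93 CPM over a median of 6.08 CPM to 13.2 CPM in KO (log2 fold change -1.43, SE 0.39). Igkc, the kappa light chain, had medians of 9.98 CPM in WT and 3.63 CPM in KO (log2 fold change -1.26, SE 0.33). Jchain, which joins IgA dimers, ranged from 1.22 CPM over a median of 4.51 CPM to 8.27 CPM in WT and from 0.726 CPM over a median of 1.35 CPM to 2.86 CPM in KO (log2 fold change -1.54, SE 0.35, edgeR adjusted p 0.291; DESeq2 adjusted p 0.0076). In Jchain 6 of 7 WT libraries lay above every KO library. The fold changes of the 3 genes kept their sign in both ranges that held KO animals, at -0.72 to -1.53 in the lower-numbered animals and -1.89 to -1.98 in the higher-numbered animals. The remaining 7 tested genes of the B and plasma cell list, which included the B cell gene Ms4a1, had no unadjusted p under 0.05. The summed level of the list was 18.9 to 96.3 CPM in WT and 18.9 to 44.8 CPM in KO. Its mean log2 CPM ran from 0.023 to 1.99 in WT and from -0.135 to 1.65 in KO, so the groups overlapped over the list.

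To ask whether the genotype difference on day 7 departed from that on day 3, the change of the difference was fitted over 29 libraries. The day 3 libraries (7 WT, 8 KO) came from animals aged 10 to 12 weeks that were also given 1.5% (w/v) DSS. Of 16371 genes tested, 0 passed an edgeR adjusted p of 0.05, and 440 (2.69%) passed an unadjusted p of 0.05, with 159 up (0.971%) and 281 down (1.72%). DESeq2 also called 0, with 521 at an unadjusted p under 0.05. The edgeR number at an unadjusted p under 0.05 depended on single libraries. It was 1333 of 16500 genes without d7_KO_420, 759 of 16525 without d3_WT_381 and 363 of 16504 without d7_WT_393. Each fit without 1 library called 0 genes. All 36 interferon-stimulated genes had a change above 0 (47.5% of all genes, 52.5% being below 0), with a median of 0.46 and 2, Ddx58 and Bst2, at an unadjusted p under 0.05. On the scale of all 38 libraries, the mean log2 CPM of the list was 3.06 ± 0.44 (SD, n = 7) in WT and 3.38 ± 0.61 (SD, n = 8) in KO on day 3, and 3.51 ± 0.56 (SD, n = 7) and 4.35 ± 0.50 (SD, n = 7) on day 7. All 16 genes of class I and 7 of 8 of class II also had a change above 0, with medians of 0.29 and 0.35.

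The plasma cell transcripts had among the smallest p in this contrast. Igha had a day 3 mean of 2.23 CPM in WT (SD 0.92, n = 7) and 4.04 CPM in KO (SD 2.90, n = 8), and a day 7 mean of 19.1 CPM in WT (SD 13.4, n = 7) and 7.12 CPM in KO (SD 3.12, n = 7) (change of the log2 fold change -2.29, SE 0.56, edgeR adjusted p 1.00). Igkc had a change of -2.10 (SE 0.55) and Jchain of -2.60 (SE 0.60). Both groups were higher on day 7 than on day 3, and WT by more. Mcpt2, a mast cell protease of the mucosa, averaged 0.237 CPM in WT (SD 0.135, n = 7) against 0.644 CPM in KO (SD 0.306, n = 8) at the earlier time, then 9.04 CPM (SD 4.24, n = 7) against 7.30 CPM (SD 2.06, n = 7) (change -1.80, SE 0.52).

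Among genes whose difference moved up was Unc93b1, which carries nucleic acid-sensing Toll-like receptors to endosomes. Its day 3 means were 44.0 CPM for WT (SD 2.54, n = 7) and 41.8 CPM for KO (SD 1.80, n = 8), and its day 7 means were 48.7 CPM for WT (SD 5.47, n = 7) and 62.2 CPM for KO (SD 6.42, n = 7) (change 0.42, SE 0.10). In each day 7 KO library Unc93b1 was above every WT library, with 41.5 to 55.5 CPM in WT and 55.6 to 71.8 CPM in KO. Sh3bp1 (change 0.78, SE 0.22), Agtrap (0.40, SE 0.12) and Arhgap8 (0.58, SE 0.19) followed. Cyp2d12, a cytochrome P450, had a change of -1.98 (SE 0.55), with medians on day 7 of 4.70 CPM in WT and 1.25 CPM in KO. Hk2 itself had a change of -0.98 (SE 0.47), with day 3 means of 173 CPM for WT (SD 47.1, n = 7) and 144 CPM for KO (SD 119, n = 8) on the scale of all 38 libraries.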

How the data were processed

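Each library was a stranded mRNA library read in pairs. The deposited values are whole-number counts per gene and lane, which the authors made with featureCounts without strand, per the file headers. The submitters' processing notes name STAR, Trim Galore and GRCm38. Without strand, reads of overlapping or antisense genes cannot be told apart. The 2 lane counts of each library were summed. Genes were kept with edgeR's filterByExpr, scaled with TMM and tested KO against WT with edgeR's quasi-likelihood test (edgeR 4.0.16, R 4.3.3) with Benjamini-Hochberg adjustment; DESeq2 1.42.0 and limma 3.58.1 (voom with sample weights) were alternatives. SE is that of the log2 fold change. The change from day 3 was a contrast over the 29 libraries of days 3 and 7; day 0 was not compared. Members and gene lists were chosen with earlier results of these data known. Named genes were Hk2, genes past the adjusted threshold, the 12 with the smallest p in each direction with a mean of at least 2 log2 CPM and no predicted symbol, the 3 list members with the smallest p, the 4 per direction for the change from day 3, and neighbours within 5 Mb; others are marked as chosen after their values were seen. Depth was 25.2 to 60.6 M counts per library, with 7 animals per group. On simulated data with 15385 genes tested on day 7, edgeR called 76% of genes with a log2 change of 1 and 99% of those with 2, with 4.37% false calls. The simulated counts were drawn independently for each gene, without library-wide differences such as those of d7_KO_420 and d7_WT_386. The changed genes had a mean of at least 1 CPM. These shares therefore need not hold for the real libraries. Some single genes are not reported here.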

Additional observations from a re-analysis of the deposited data

Results flagged for a closer look

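In 15 of 192 values examined by group, 1 of the 7 libraries lay far from the other 6 relative to the group's range; the threshold used has a nominal chance rate of about 1 in 20. Among hexokinase genes, Hk2 was 595 CPM in d7_WT_356 against 311 CPM in the nearest WT library, and Hkdc1 was 173 CPM in d7_KO_420 against 76.3 CPM in the nearest KO library. Among the genes with the smallest p, Spsb1 was 7.21 CPM in d7_WT_356 (nearest 5.05 CPM), Per2 was 45.9 CPM in d7_KO_422 (nearest 33.3 CPM), Hmgb2 was 163 CPM in d7_WT_386 (nearest 107 CPM) and Lrrc40 was 26.3 CPM in d7_KO_420 (nearest 22.3 CPM).

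Ifit3 was 6.06 CPM in d7_KO_421 (nearest 4.38 CPM), the KO library with the highest interferon-stimulated level. Igha was 13.2 CPM in d7_KO_420 (nearest 7.85 CPM). Zg16 was 2609 CPM in d7_WT_393 (nearest 1847.5 CPM). Rnf43 was 40.4 CPM and Syvn1 83.0 CPM in d7_WT_370, against 30.3 and 67.9 CPM in the nearest WT libraries. Hspa1b was 180.13 CPM in d7_WT_386 (nearest 67.8 CPM). The mean log2 CPM of the antioxidant list was 7.12 in d7_KO_420 (nearest 6.77). The mitochondrial genome gave 26.6% of counts in d7_WT_386 (nearest 17.4%), and the short-minus-long measure was -0.0090 in d7_KO_420 (nearest -0.0793).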

How the results depend on the processing

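The number of genes called on day 7 was 1 with edgeR. It was 89 with DESeq2, 596 with limma voom, 38 with all 38 libraries in 1 fit, 2 with no filter beyond a count above 0, 2 within the lower-numbered animals, and 2 without d7_KO_420 and d7_WT_386 (a setting added after the data were seen). With a mean CPM of at least 1 it was 0 with edgeR (1756 at an unadjusted p under 0.05), and within the higher-numbered animals it was 0 with edgeR (2.28% of genes at an unadjusted p under 0.05). Leaving out each library gave 1 to 2 calls, with 2 without d7_WT_370 or d7_WT_419. Hk2 was -1.25 with DESeq2 (adjusted p 0.0119) and -1.44 with limma voom (adjusted p 0.0358), both past the threshold. Tdpx-ps1 was called in 14 of 14 fits without 1 library and was 6.87 (edgeR adjusted p 0.231) within the higher-numbered animals. The sign turned for Hk1 (-0.0015) and Hkdc1 (-0.38) within the lower-numbered animals. It turned for C1qc (-0.44) and Hk3 (-0.21) within the higher-numbered animals. It turned for Hk1 (-0.027) and Hkdc1 (-0.27) without d7_KO_420 and d7_WT_386, and for Hkdc1 with limma voom (-0.18) and with the range of animal numbers in the model (-0.00063). Leaving out 1 library gave -0.23 to 0.29 for Hkdc1. The cause was not tested. Of 2454 values of 81 named-gene results, 2357 kept their direction and side of the threshold. Only 1 gene passed the threshold in the main fit, so most values kept their side by staying short of it. The tally does not measure how far a fold change moved: Hk2 at -0.58 within the higher-numbered animals counted as kept. No paired analysis was made: the labels used here give animal numbers but no litter or cage, although WT animals were littermates. Depth limits genes near 0.0452 to 0.144 CPM, the level of 3 counts.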
